A study of Mus musculus with 3 samples.

Results

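The comparison described here asks which genes and functions differ in hepatic stellate cells (HSCs) after a day with fibroblast growth factor 18 (FGF18), and it covers 9358 of the 31447 genes in the deposited table, those whose untreated and FGF18 group means average at least 10 TPM, a unit of transcript abundance corrected for gene length and sequencing depth. The gene nearest above that minimum averaged 10.0026 TPM (*Lyrm7*) and the nearest below it 9.996 TPM (*Gm44903*). HSCs were purified on Nycodenz gradients from livers of wild-type C57BL/6 mice, all female and older than 24 weeks, starved in DMEM with 0.2% FBS for 24 h, and then left untreated, given FGF18 (recombinant human protein, 100 ng/mL) or given TGFβ1 (1 ng/mL) for 24 h. Every group therefore shares the low-serum culture, and the untreated cells are cultured cells, not cells taken straight from the liver. The study's methods speak of triplicate samples, the labels list 1 record per condition, and only the authors' mean over each group was used, so no difference below has a replicate check and none was tested.

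HSCs store vitamin A in lipid droplets, and in injured liver they turn into contractile, matrix-producing myofibroblasts. FGFs bind receptor tyrosine kinases together with heparan sulfate, and in many cell types the signal runs through RAS, MEK and ERK to ETS and AP-1 transcription factors, which in turn raise phosphatases and adaptor proteins that damp ERK. FGF18 belongs to the paracrine FGF8 subfamily.

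The FGF18 and untreated means lay close together for most genes. The log2 ratio, computed as FGF18 over untreated with 1 TPM added to both, had a median of -0.03 and quartiles of -0.27 and 0.17, and 88.1% of the 9358 genes lay within 1.5-fold. At least 2-fold higher with FGF18 were 99 genes (1.06%), and at least 2-fold lower were 145 (1.55%). The ratio was above 0 for 45.6% of the genes and below 0 for 54.4%, and these shares are the background for the gene lists below. The median rose with level, from -0.13 at 10 to 20 TPM to 0.04 at 100 to 1000 TPM and 0.15 from 1000 TPM. With no level minimum the median of all genes was -0.10 and 60.2% were below 0. List values given below with no minimum are to be read beside these. In a bulk sample, fewer cells of a type and less RNA per cell cannot be told apart.

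**Figure D1:**
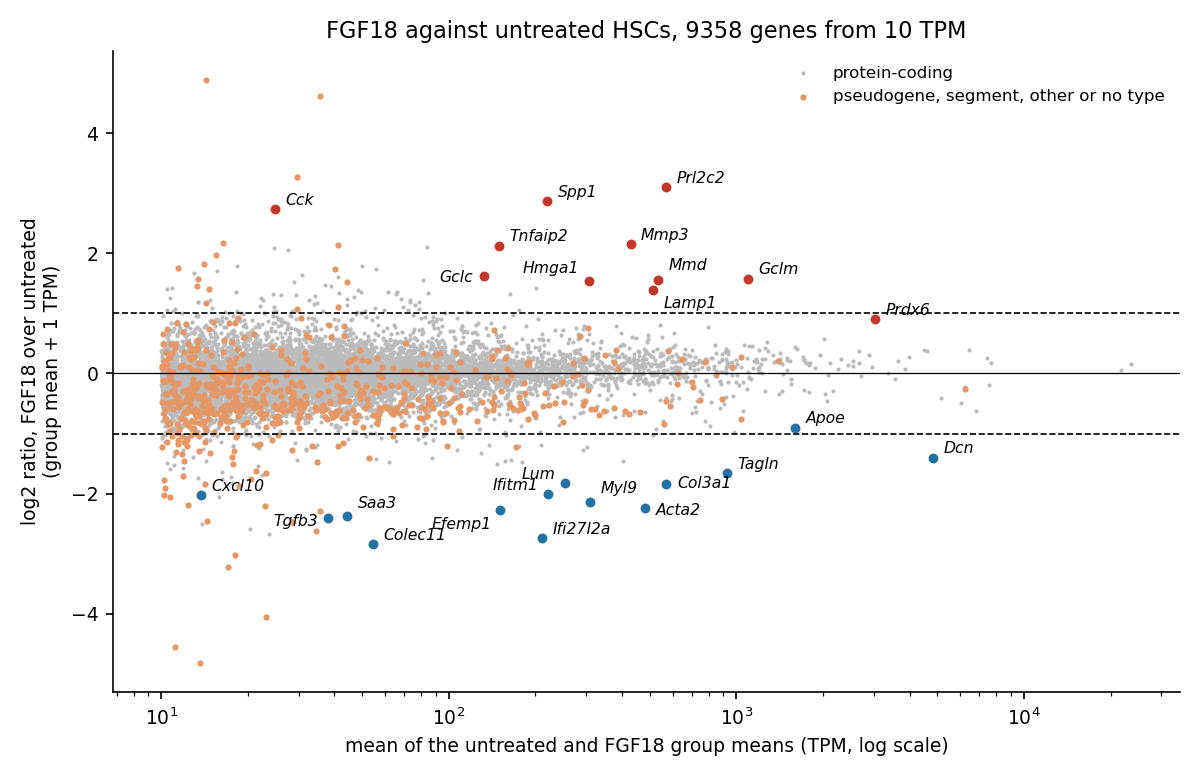
Each point is 1 of 9358 genes, with the mean of the untreated and FGF18 group means (TPM, log scale) on the x axis and the log2 ratio of FGF18 over untreated on the y axis. The dashed lines mark 2-fold, the genes named in red had higher and those in blue lower FGF18 means, and the 3 highest and the 5 lowest ratios belong to pseudogenes and receptor segments (orange).

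The cells carried the marks of HSCs. Of 25 stellate cell markers, 23 reached 10 TPM, among them *Reln*, which encodes the secreted glycoprotein reelin (208 TPM untreated and 234 TPM with FGF18), and *Des*, the intermediate filament desmin (148 and 116 TPM). *Alb*, the hepatocyte product albumin, stood at 6.03 and 6.31 TPM, and only 1 of 27 hepatocyte markers reached 10 TPM. Of 25 Kupffer cell and macrophage markers, 6 reached 10 TPM. Among them were *Slc40a1*, the iron exporter ferroportin, which other cells also use (847 and 667 TPM), *Cd68* (52.1 and 85.0 TPM) and *Ptprc* (13.0 and 8.32 TPM). The markers *Clec4f* (0.19 and 0.53 TPM), *Vsig4* (0.47 and 1.27 TPM) and *Adgre1* (0.28 and 0.47 TPM) were near 0. Endothelial markers were present too. Of 25 on the list, 13 reached 10 TPM, and their summed level was 1055 TPM untreated and 930 TPM with FGF18. *Pecam1* stood at 103 and 77.7 TPM, *Fcgr2b* at 143 and 101 TPM and *Clec1b* at 59.4 and 41.3 TPM. *Lyve1* (0.86 and 0.32 TPM), in contrast, was near 0.

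The receptors through which FGF18 can act differed in direction. *Fgfr2* was listed at 212 TPM untreated and 103 TPM with FGF18 (log2 ratio -1.03), and *Fgfr1* at 39.5 and 50.3 TPM (0.34). *Fgfr3* (1.99 and 1.25 TPM) and *Fgfr4* (0.12 and 0.25 TPM) stayed below the minimum, as did *Fgf18* itself (0.39 and 0.16 TPM). *Sdc3*, a syndecan whose heparan sulfate chains bind FGFs, was 2.36-fold higher (43.7 and 103 TPM), and *Grb2*, the adaptor that links receptors to RAS, was listed at 22.7 and 43.9 TPM. Their means with TGFβ1 were also above the untreated ones, at 135 TPM for *Sdc3* and 46.8 TPM for *Grb2*. Over the 13 of 34 FGF receptors, ligands and co-receptors that reached 10 TPM, 1 was past 2-fold in each direction and the median log2 ratio was 0.12, and -0.0994 when no level minimum was set.

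Downstream of the receptors, genes that respond to ERK stood mostly higher with FGF18. Of 30 ETS factors and ERK-responsive targets, a list chosen with earlier results of these data known, 19 reached 10 TPM. Of these, 18 were above 0 and 4 were past 2-fold, all higher. The median log2 ratio was 0.63, but 0.53 with a minimum of 5 or of 20 TPM and 0.35 with none. The 4 past 2-fold were the proteases *Mmp3* and *Mmp10* and the chromatin architectural proteins *Hmga1* and *Hmga2*. They count again in the lists of matrix proteases and of high mobility group genes below. *Hmga1* was listed at 157 TPM untreated and 457 TPM with FGF18 (2.90-fold), and *Hmga2*, a fetal member of the same family, at 6.85 and 24.5 TPM. *Fosl1*, an AP-1 subunit stabilized by ERK, stood at 90.1 and 158 TPM, and *Ets2* alone among the 19 was below 0 (log2 ratio -0.42). *Ccnd1* lay under the level minimum, with 3.32 TPM untreated and 11.8 TPM with FGF18.

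The brakes on ERK were mixed. *Dusp4*, a nuclear phosphatase that inactivates ERK, was 2.11-fold higher (23.6 and 49.7 TPM), and *Dusp6*, its cytoplasmic counterpart, was listed at 45.0 and 76.6 TPM (log2 ratio 0.75). *Spred1*, a membrane inhibitor of RAS signaling, was also higher, at 10.6 and 16.9 TPM, as was *Errfi1*, an inhibitor of EGF receptor kinases, at 32.8 and 54.0 TPM. *Dusp1*, a phosphatase that prefers p38 and JNK, was lower at 177 and 122 TPM. Among the 11 of 22 feedback inhibitors that reached 10 TPM, 6 were above 0 and the median was 0.26 (0.14 with no level minimum). *Dusp5* averaged less than 10 TPM but stood at 2.40 TPM untreated and 13.1 TPM with FGF18. The early genes of the AP-1 and KLF families showed little shift at 24 h, with a median of 0.05 over 18 genes that turned to below 0 in other settings. *Jund* was higher at 38.1 and 80.6 TPM, and *Klf10*, an early gene of the TGFβ response, was lower at 250 and 149 TPM. With TGFβ1, *Jund* stood at 78.5 TPM and *Klf10* at 197 TPM.

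**Figure D2:**
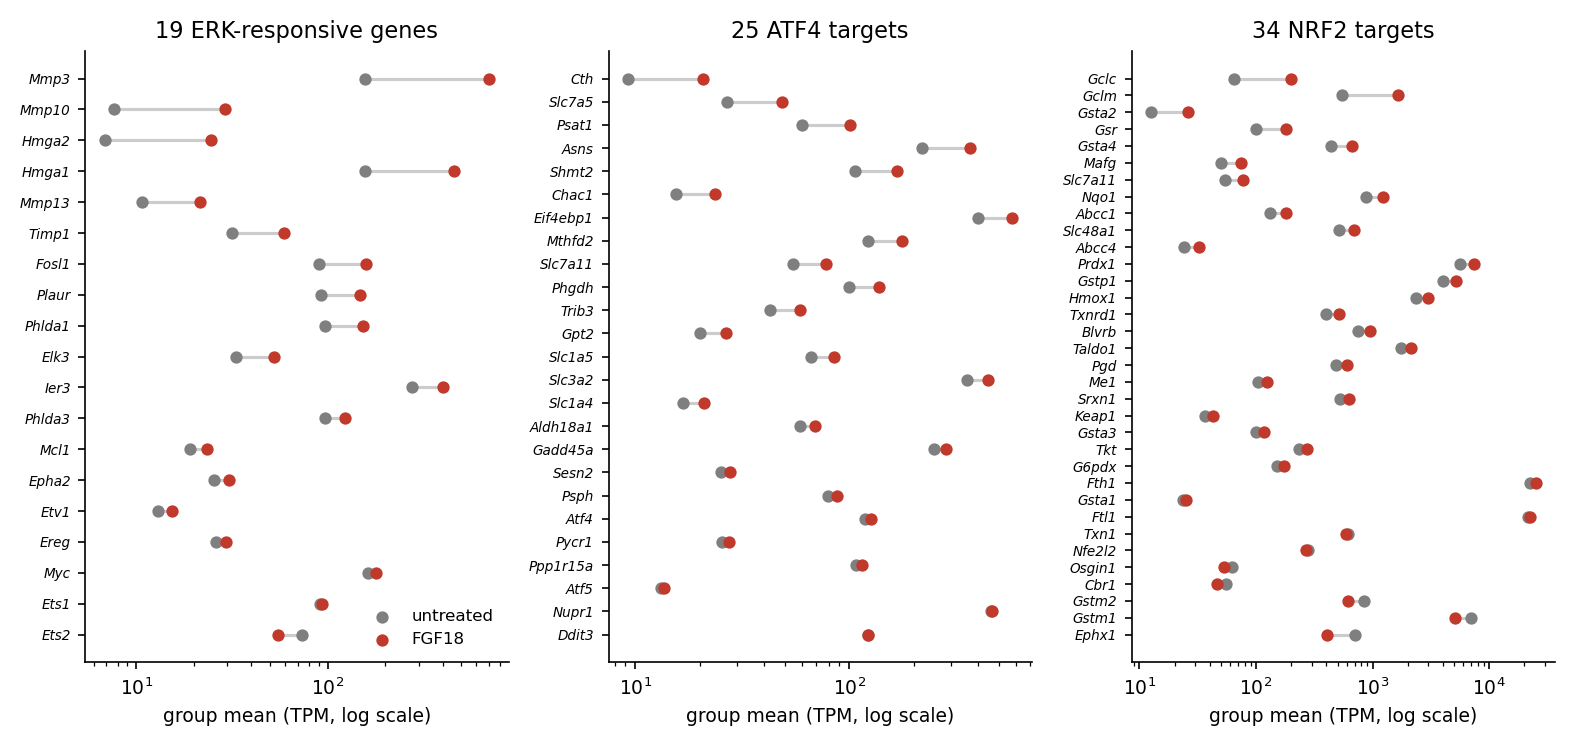
Group means (TPM, log scale) of the members from 10 TPM of 3 gene lists, untreated in grey and FGF18 in red, joined by a line and ordered by log2 ratio. The red point lies to the right for 18 of 19 ERK-responsive genes, for each of 25 ATF4 targets and for 27 of 34 NRF2 targets.

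Among genes that reached 100 TPM, the 3 highest ratios belonged to secreted proteins, *Prl2c2*, *Spp1* and *Mmp3*. *Prl2c2*, which encodes proliferin, a prolactin family hormone first found in growth-stimulated fibroblasts, was listed at 118 TPM untreated and 1022 TPM with FGF18, a ratio of 8.68 (chr13:12996125-13005383, GRCm38). Its close copy *Prl2c3* stood at 44.3 and 103 TPM, and *Prl2c5* at 13.0 and 9.55 TPM. These genes lie within the same region of chromosome 13 and are near identical, so how reads were shared among them is uncertain. The TGFβ1 mean of *Prl2c2* was 133 TPM. The TGFβ1 values share the untreated cells with the FGF18 comparison and are given beside them only as a reference. *Spp1* (osteopontin) came next, at 52.1 TPM untreated, 388 TPM with FGF18 and 285 TPM with TGFβ1.

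*Tnfaip2*, a TNF-inducible gene linked to membrane protrusions, was 4.44-fold higher, at 55.0 TPM untreated and 244 TPM with FGF18 against 64.5 TPM with TGFβ1. *Mmd*, first described in differentiating macrophages, stood at 272 and 798 TPM. *Prkar2b*, a regulatory subunit of protein kinase A, was listed at 109 and 292 TPM, and *Lamp1*, a main glycoprotein of the lysosomal membrane, at 283 and 745 TPM. Both *Mmd* and *Lamp1* were also high with TGFβ1 (645 and 613 TPM), whereas *Prkar2b* was not (102 TPM).

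**Figure D3:**
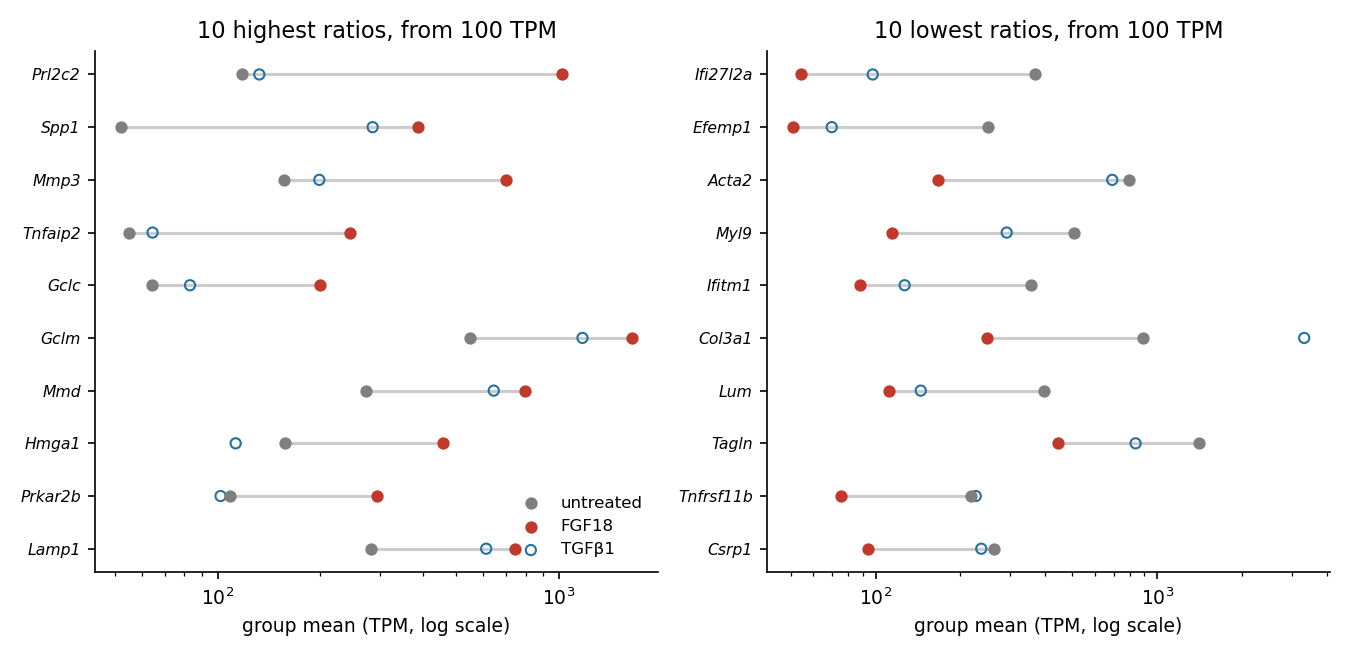
Group means (TPM, log scale) of the 10 genes with the highest and the 10 with the lowest log2 ratio among those averaging at least 100 TPM, in untreated (grey), FGF18 (red) and TGFβ1 (blue, open) cells. *Prl2c2* spans 118 to 1022 TPM, and *Col3a1* lies at 248 TPM with FGF18 and 3322 TPM with TGFβ1.

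At lower levels the leading genes were of several kinds. *Cck*, the peptide hormone cholecystokinin, was listed at 5.75 TPM untreated and 44.1 TPM with FGF18. *Star*, which carries cholesterol into mitochondria for steroid synthesis, was at 8.69 and 40.5 TPM, with 10.4 TPM after TGFβ1. *Slco4a1*, an organic anion transporter, was at 21.9 and 78.1 TPM, and *Entpd1*, the ectonucleotidase CD39, at 5.67 and 20.2 TPM. *Oaf*, a secreted protein named for a fly homolog, stood at 30.9 and 137 TPM. *Arf6*, a small GTPase of endocytosis and cell movement, was 3.44-fold higher (25.1 and 86.2 TPM), and *Rac1*, a GTPase of lamellipodia, stood at 92.4 and 234 TPM with 199 TPM after TGFβ1. *Lmo2*, a LIM-domain partner of transcription factors, was at 20.0 and 62.6 TPM. *Yrdc*, which acts in threonylcarbamoyl modification of tRNA, was at 14.5 and 47.1 TPM. With TGFβ1, *Cck* stood at 25.7 TPM, *Entpd1* at 19.1 TPM, *Oaf* at 84.8 TPM, *Arf6* at 60.5 TPM and *Yrdc* at 39.7 TPM. The TGFβ1 mean of *Slco4a1* was 23.2 TPM and that of *Lmo2* 11.7 TPM.

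Signals to other cells were among the genes past 2-fold. *Sema3a*, a repulsive guidance cue, was listed at 19.2 TPM untreated and 46.3 TPM with FGF18, and *Neo1*, a receptor for netrins and repulsive guidance molecules, at 16.5 and 42.5 TPM. *Rgmb*, a BMP co-receptor that binds neogenin, was higher as well (7.74 and 19.03 TPM). *Bmp2* stood at 50.2 and 107 TPM against 20.0 TPM with TGFβ1, while *Gdf2*, encoding BMP9, was lower at 107 and 49.6 TPM and *Gdf10* at 48.8 and 20.8 TPM. The Id genes, targets of BMP signaling, did not share a direction. *Id1* was at 20.1 and 38.8 TPM, *Id2* at 231 and 125 TPM and *Id3* at 499 and 310 TPM. *Bmp2* is also an endothelial product in liver, and the other 12 endothelial markers from 10 TPM were all below 0.

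*Thbd*, the thrombin receptor thrombomodulin, was 2.53-fold higher (37.1 and 94.0 TPM). *Ptgs1*, the constitutive cyclooxygenase, stood at 40.7 TPM untreated, 122 TPM with FGF18 and 135 TPM with TGFβ1, and *Pla2g12a*, a secreted phospholipase, at 20.96 and 48.7 TPM. The median of 13 prostaglandin synthesis genes was 0.25, and it turned to below 0 when no level minimum was set. *Hes1*, a Notch target, was at 14.6 and 37.6 TPM, with 33.3 TPM after TGFβ1. *Disp2*, of the Dispatched family that releases Hedgehog ligands, was at 14.4 and 43.4 TPM. Growth factor receptors of the PDGF system differed from each other, with *Pdgfra* at 73.2 and 140 TPM and *Pdgfrb* at 66.3 and 49.6 TPM, and the ligand *Pdgfd* was lower at 16.9 and 3.41 TPM.

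Stromelysins had the highest ratios among matrix proteases and their inhibitors. *Mmp3* (stromelysin 1) was 4.48-fold higher at 156 TPM untreated and 700 TPM with FGF18, against 199 TPM with TGFβ1, and *Mmp10* (stromelysin 2) was 3.76-fold higher at 7.70 and 29.0 TPM. *Mmp13*, a collagenase, was at 10.8 and 21.7 TPM, a plain ratio of 2.01 that is below 2-fold once 1 TPM is added (log2 ratio 0.95). *Timp1* was at 31.7 and 59.5 TPM and *Timp2* at 50.4 and 99.7 TPM. Of 19 listed MMPs and TIMPs, 12 reached 10 TPM, 7 were above 0, and the median was 0.30. The 3 MMP genes belong to a cluster on chromosome 9 of GRCm38, *Mmp13* at 7272514-7283331, *Mmp3* at 7445822-7455975 and *Mmp10* at 7502352-7510240. *Mmp12*, the macrophage elastase, lies between *Mmp13* and *Mmp3* at 7344381-7369499 and was lower, at 107 and 81.6 TPM.

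The promoters of 3 of these genes are shown because each holds a short motif close to the start site. The letters TGANTCA, the AP-1 element, occurred on either strand in the RefSeq promoter window (250 bases before to 50 after the start, GRCm38.p6) of 4 of the 11 MMPs and TIMPs with a window, *Mmp3*, *Mmp10*, *Mmp13* and the lower *Mmp12*, and in 7.81% of all 32851 windows. Of the 9354 symbols compared, 6958 had a window, and 6.21% of these held the motif. Among genes with a window, it was found in 5 of 59 (8.47%) at least 2-fold higher and in 6 of 62 (9.68%) at least 2-fold lower. The higher *Timp1* and *Timp2* had none in theirs. The stretches below are read in the direction of transcription with the match in capitals, which begins 46, 63 and 35 bases before the start of *Mmp3* (chr9:7445736-7445821), *Mmp10* (chr9:7502239-7502325) and *Mmp13* (chr9:7272439-7272513), all on the plus strand.
Mmp3: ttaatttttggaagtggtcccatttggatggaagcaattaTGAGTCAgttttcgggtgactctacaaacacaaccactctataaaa
Mmp10: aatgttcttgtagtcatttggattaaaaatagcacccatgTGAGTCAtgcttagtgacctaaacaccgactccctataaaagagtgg
Mmp13: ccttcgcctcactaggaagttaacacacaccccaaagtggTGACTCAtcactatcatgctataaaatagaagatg

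The enzyme that limits glutathione synthesis was among the genes past 2-fold. *Gclc* and *Gclm*, the catalytic and modifier subunits of glutamate-cysteine ligase, were 3.11-fold and 2.99-fold higher. *Gclc* was listed at 64.4 TPM untreated, 200 TPM with FGF18 and 83.0 TPM with TGFβ1, and *Gclm* at 549, 1642 and 1173 TPM. *Gclm* was the only gene from 1000 TPM that was at least 2-fold higher. *Gss*, which adds the last residue of glutathione, stood at 101 and 147 TPM, *Gsr*, which recycles it, at 100.2 and 180 TPM, and *Slc7a11*, the cystine importer, at 54.5 and 77.8 TPM. *Cth*, which makes cysteine from cystathionine, was at 9.23 and 20.8 TPM. These further genes were chosen after their values were seen. Of 31 genes of peroxide removal and selenoproteins, 29 reached 10 TPM, 16 were above 0, none was past 2-fold and the median was 0.0033.

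The wider set of NRF2 targets followed in part. All 34 reached 10 TPM, 27 were above 0, 2 were past 2-fold higher, and the median was 0.30. *Nqo1* was at 886 and 1233 TPM and *Gsta4* at 436 and 665 TPM. *Gsta2*, at 12.6 and 26.0 TPM, was just under 2-fold on the scale with 1 TPM added. The detoxifying genes *Ephx1* (704 and 406 TPM) and *Gstm1* (7045 and 5038 TPM) were lower. *Nfe2l2*, which encodes NRF2, differed little (279 and 268 TPM). *Prdx6*, a peroxidase with phospholipase activity, had the next ratio below *Gclm* among genes from 1000 TPM, at 2109 and 3943 TPM, while *Txnip*, an inhibitor of thioredoxin, stood at 53.7 and 28.3 TPM. *Cyp1a1*, a target of the aryl hydrocarbon receptor, was at 1044 TPM untreated, 1508 TPM with FGF18 and 95.9 TPM with TGFβ1.

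The core of the antioxidant response element, TGACNNNGC on either strand, occurred in the promoter window of 11 of the 28 NRF2 targets that had one and in 12.4% of all windows. These letters were found in 16.9% of the compared genes with a window, in 12 of 59 (20.3%) at least 2-fold higher and in 9 of 62 (14.5%) at least 2-fold lower. Those letters can cover the same bases as an AP-1 element. *Gclm* is shown as the member of highest ratio with a match, which is in capitals on the opposite strand and begins 134 bases before the start (chr3:122245383-122245471, plus strand).
Gclm: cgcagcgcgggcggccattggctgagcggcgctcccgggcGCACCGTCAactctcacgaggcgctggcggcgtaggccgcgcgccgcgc

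Amino acid supply and protein synthesis genes were higher by small amounts. Of 31 ATF4 targets of the integrated stress response, 25 reached 10 TPM and each of these was above 0, with a median of 0.36 and 1 gene (*Cth*) past 2-fold. *Asns*, asparagine synthetase, stood at 220 and 366 TPM, *Psat1*, of the serine pathway, at 59.96 and 101 TPM, *Shmt2*, which feeds one-carbon units in mitochondria, at 106 and 166 TPM, and *Slc7a5*, a carrier of large neutral amino acids, at 26.8 and 48.4 TPM. *Atf4* itself (log2 ratio 0.10) and *Ddit3*, encoding CHOP (0.00), hardly differed. The letters TGATGNAA, the ATF4 composite element, were found in 7 of 21 windows of these genes and in 3.97% of all windows. Among the compared genes with a window the share was 2.70%, with 1 of 59 (1.69%) at least 2-fold higher and 3 of 62 (4.84%) at least 2-fold lower. The *Asns* stretch (chr6:7693210-7693272, minus strand) holds a match that begins 23 bases before the start.
Asns: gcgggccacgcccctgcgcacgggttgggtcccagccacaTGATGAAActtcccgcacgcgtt

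Cytosolic ribosomal proteins lay just above the untreated level, with 78 of 79 above 0, none past 2-fold and a median of 0.17. Their summed level was 58881 TPM untreated, 66091 TPM with FGF18 and 65895 TPM with TGFβ1. For comparison, genes of any kind had a median of 0.15 from 1000 TPM and 0.04 from 100 to 1000 TPM. *Odc1*, the first enzyme of polyamine synthesis, was at 60.2 and 110 TPM and *Srm*, spermidine synthase, at 115 and 196 TPM. With TGFβ1, *Odc1* stood at 145 TPM and *Srm* at 243 TPM. Endoplasmic reticulum chaperones had a median of 0.25 with 23 of 28 above 0, and *Hspa5* (BiP) stood at 929 and 1275 TPM. Cholesterol synthesis and uptake had a median of 0.19 (0.29 from 20 TPM) with 19 of 23 above 0, with *Sqle*, which epoxidizes squalene, at 34.6 and 54.8 TPM. Genes of glycolysis and the hypoxia response had a median of 0.19 with 16 of 23 above 0 and 7 below. *Pkm* stood at 1613 and 2408 TPM and the glucose transporter *Slc2a1* at 88.7 and 143 TPM. The glycolytic enzyme *Pfkp* was lower, at 104 and 68.0 TPM. Nuclear-encoded subunits of oxidative phosphorylation were centred at -0.05, with 18 of 49 above 0.

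**Figure D4:**
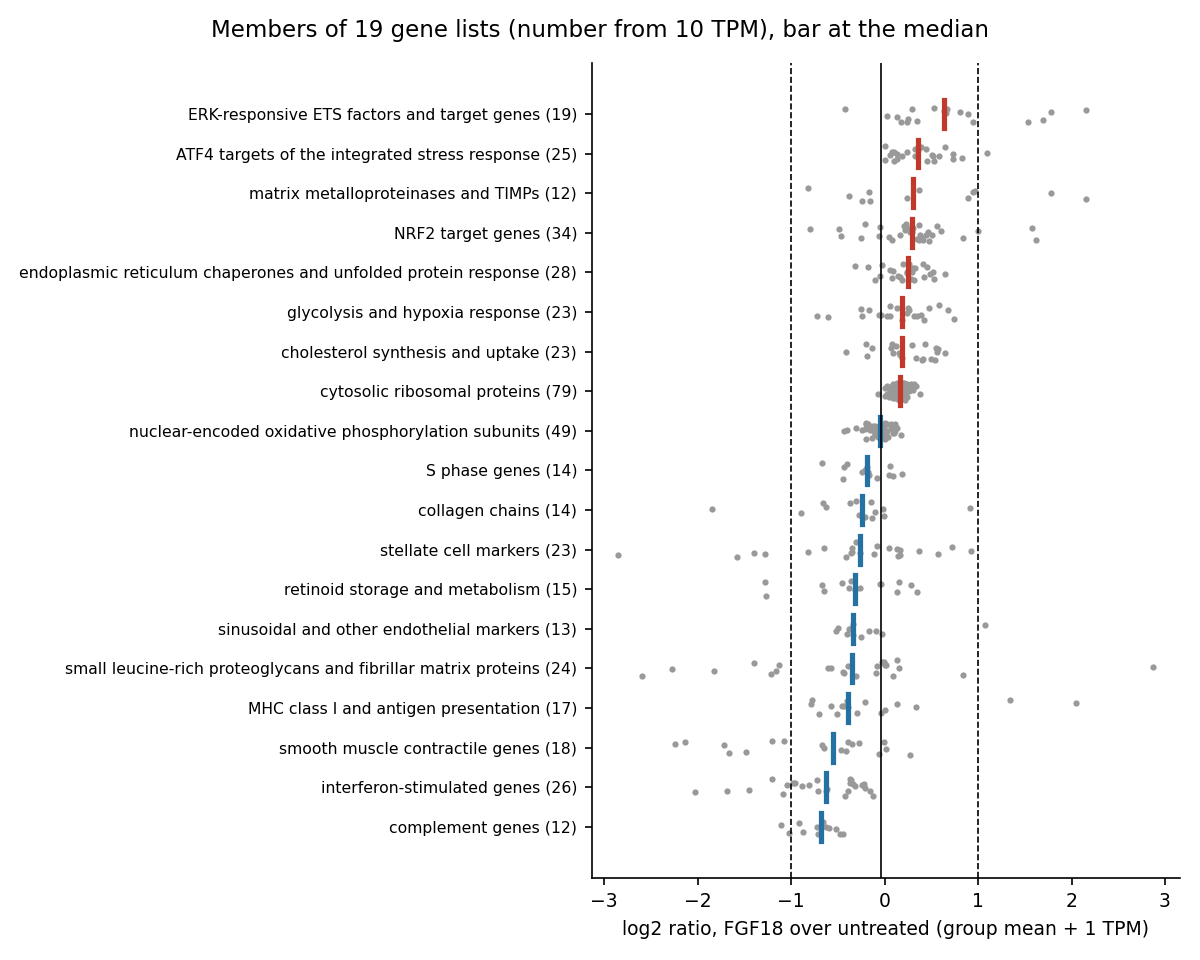
Each grey point is a member from 10 TPM of 1 of 19 gene lists (number of members in brackets), placed by its log2 ratio of FGF18 over untreated. The coloured bar is the list's median, from 0.63 for ERK-responsive genes to -0.68 for complement genes, the solid line is the median of all genes (-0.03) and the dashed lines mark 2-fold.

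S phase genes from 10 TPM stood mostly lower with FGF18, and CDK genes were divided. Of the 27 S phase genes, 14 reached 10 TPM, 4 were above 0 and the median was -0.19, with *Mcm4*, of the replicative helicase, at 16.6 TPM untreated and 10.1 TPM with FGF18. At any level 18 of the 27 were below 0, not far from the 60.2% of all genes. Of 27 mitotic genes, 5 reached 10 TPM and 1 of these, *Cdk1*, was above 0 (9.66 and 11.1 TPM), while *Top2a* was listed at 19.7 and 10.8 TPM. The mitotic median was -0.38, but -0.15 from 5 TPM, and at any level 14 were below 0 and 13 above. Of 20 D cyclins, CDKs and CDK inhibitors, 14 reached 10 TPM, 7 were above 0, none was past 2-fold and the median was -0.00043. *Ccnd1*, given above, lay under the level minimum and is not among the 14. *Cdkn2b*, the CDK inhibitor p15 and the highest of the 14, stood at 54.8 and 105 TPM, *Cdkn1a* (p21) at 412 and 502 TPM, and *Cdk6*, a partner of the D cyclins, at 10.9 and 9.20 TPM.

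Several matrix proteins outside the collagens were at least 2-fold lower, while others were not. *Dcn* (decorin), among the most abundant mRNAs of these cells, stood at 7021 TPM untreated, 2661 TPM with FGF18 and 4276 TPM with TGFβ1, and it was the only gene from 1000 TPM at least 2-fold lower. The small leucine-rich proteoglycans *Ogn* (35.6 and 5.08 TPM), *Lum* (397 and 111 TPM) and *Prelp* (425 and 182 TPM), which bind collagen, were lower as well. *Dcn* (chr10:97479609-97518143) and *Lum* (chr10:97565128-97572703) are neighbors on chromosome 10. *Efemp1*, an elastic fiber protein of the fibulin family, was 4.91-fold lower (250 and 50.9 TPM), and *Postn* was at 19.9 and 8.56 TPM against 64.7 TPM with TGFβ1. Of 37 small leucine-rich and fibrillar matrix genes, 24 reached 10 TPM, 7 were above 0, 7 were at least 2-fold lower and 1 (*Spp1*) higher, with a median of -0.35. That median was -0.0013 when only genes from 100 TPM were kept and -0.15 with no minimum. Basement membrane genes were divided, with 5 of 11 above 0, none past 2-fold and a summed level of 509 and 555 TPM. Their median was -0.36, but 0.0718 from 20 TPM, and *Nid1* (nidogen 1) was higher at 118 and 184 TPM. Portal fibroblasts also make matrix, and 6 of the 7 portal fibroblast markers from 10 TPM (of 18 listed) were below 0, with a sum of 464 TPM untreated and 268 TPM with FGF18. The part such cells play in the matrix values was not tested.

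The smooth muscle program was lower beyond *Acta2*. Of 27 contractile genes, 18 reached 10 TPM, 16 were below 0 and 7 were at least 2-fold lower, with a median of -0.55. *Myl9*, the regulatory light chain of smooth muscle myosin, was at 505 and 114 TPM, *Tagln* (SM22) at 1408 and 445 TPM and *Myh11*, the smooth muscle myosin heavy chain, at 27.2 and 7.58 TPM. *Csrp1* (264 and 94.2 TPM), *Tpm2* (192 and 83.2 TPM) and *Ppp1r14a*, an inhibitor of myosin phosphatase (79.2 and 37.1 TPM), were also past 2-fold. With TGFβ1, *Acta2* stood at 692 TPM and *Myl9* at 292 TPM. Non-muscle actin, tubulin and migration genes had a median of 0.06 over 29 genes. Markers shared with vascular smooth muscle and pericytes were lower too, 5 of 18 reaching 10 TPM and their sum being 483 and 277 TPM and their median -0.82 (-0.44 with no minimum), with *Mustn1* at 230 and 82.7 TPM. The part such cells play in the contractile values was not tested.

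The CArG box, the binding motif of serum response factor, was found in 3 of 16 contractile gene windows (*Myl9*, *Cnn2* and *Vcl*) and in 1.63% of all windows. Among the compared genes with a window the share was 1.54%, with 1 of 59 (1.69%) at least 2-fold higher and 2 of 62 (3.23%) at least 2-fold lower. *Myl9* is printed as the match of lowest ratio, beginning 161 bases before the start (chr2:156775263-156775352, plus strand).
Myl9: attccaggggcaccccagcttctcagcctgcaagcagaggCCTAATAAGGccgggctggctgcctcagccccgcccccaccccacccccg

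Several genes of the quiescent HSC were lower. *Colec11*, a soluble collectin, had the lowest ratio of the protein-coding genes at 96.2 TPM untreated, 12.5 TPM with FGF18 and 7.44 TPM with TGFβ1, and its partner *Colec10* was at 16.6 and 4.87 TPM. *Lrat*, which esterifies retinol for storage, stood at 151 and 61.6 TPM, and *Aldh1a1*, which makes retinoic acid, at 413 and 171 TPM. Of 28 retinoid genes, 15 reached 10 TPM and 11 of these were below 0, with a median of -0.32. With no minimum the retinoid median was -0.12, near the -0.10 of all genes. At any level 18 of the 28 were below 0, against 60.2% of all genes. The 23 stellate markers had a median of -0.26, with 4 at least 2-fold lower, while *Pdgfra* (log2 ratio 0.93), *Angptl6* (0.72) and *Fcna* (0.57) stood higher.

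Apolipoprotein and sterol efflux genes did not share a direction. Of 25 listed, 14 reached 10 TPM, 8 of these were above 0, and the median was 0.042, with *Star*, described above, highest (log2 ratio 2.10) and *Apoc1* lowest (-1.48). *Apoe* was listed at 2089 TPM untreated, 1118 TPM with FGF18 and 522 TPM with TGFβ1, *Apoc1* at 91.7, 32.2 and 19.1 TPM, and *Cyp27a1*, which makes 27-hydroxycholesterol, at 48.2 and 20.1 TPM. Receptors and a ligand chosen for their low ratios were of other kinds. *Nr1h4*, the bile acid receptor FXR, was at 32.2 and 15.2 TPM. *Ramp1*, a subunit of the CGRP receptor, was at 28.0 and 7.22 TPM, and *Agtr1a*, the angiotensin II receptor, at 208 and 105 TPM. *Tgfb3* stood at 64.8 TPM untreated, 11.4 TPM with FGF18 and 10.9 TPM with TGFβ1, and over the 21 TGFβ ligands, receptors and SMADs from 10 TPM it was the only one past 2-fold.

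Interferon-stimulated genes were lower as a group. Of 37 listed, 26 reached 10 TPM, and the log2 ratio was below 0 for each of these 26, with 6 at least 2-fold lower and a median of -0.62. At any level, 37 of 37 were below 0, against 60.2% of all 31447 genes in the table. *Irf7*, the transcription factor that amplifies type I interferon, stood at 34.6 TPM untreated, 10.1 TPM with FGF18 and 20.9 TPM with TGFβ1. *Cxcl10*, a chemokine for T cells, was at 22.7, 4.82 and 7.51 TPM, and *Gbp2*, a guanylate-binding GTPase of host defense, at 43.7, 15.4 and 24.6 TPM. *Isg15*, a ubiquitin-like modifier, was at 61.7 and 31.3 TPM and *Usp18*, the protease that removes it, at 30.3 and 14.8 TPM. *Bst2* (log2 ratio -0.13) lay closer to 0. Outside the list, *Ifi27l2a* was 6.80-fold lower (369 and 54.2 TPM) and *Ifitm1* 4.06-fold lower (356 and 87.7 TPM).

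The interferon promoters are shown because the motif is frequent in them. The letters GAAANNGAAA, the core of the interferon-stimulated response element, occurred on either strand in 13 of 20 windows of these genes and in 3.44% of all windows. It was found in 3.89% of the compared genes with a window. Of those at least 2-fold higher 4 of 59 (6.78%) held it, and of those at least 2-fold lower 8 of 62 (12.9%). The 8 include *Cxcl10* and *Gbp2* of the interferon list itself. Every match within a stretch is in capitals, and the one nearest the start begins 213 bases before the start of *Cxcl10* (chr5:92349053-92349139, minus strand), 59 before *Gbp2* (chr3:142620564-142620653, plus), 122 before *Ifit3* (chr19:34583367-34583456, plus) and 66 before *Isg15* (chr4:156200835-156200924, minus). *Gbp2* and *Ifit3* hold the motif on the opposite strand. The *Ifit3* stretch holds 2 matches, the farther one beginning 156 bases before the start, and the *Isg15* stretch holds 3 that overlap, the farthest beginning 78 bases before it.
Cxcl10: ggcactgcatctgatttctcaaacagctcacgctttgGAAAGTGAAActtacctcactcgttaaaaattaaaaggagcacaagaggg
Gbp2: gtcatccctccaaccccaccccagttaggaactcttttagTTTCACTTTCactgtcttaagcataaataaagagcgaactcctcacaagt
Ifit3: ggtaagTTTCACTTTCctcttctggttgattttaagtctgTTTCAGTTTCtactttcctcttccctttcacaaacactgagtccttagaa
Isg15: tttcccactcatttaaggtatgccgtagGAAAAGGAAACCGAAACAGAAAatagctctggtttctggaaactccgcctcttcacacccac

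Antigen presentation divided into a lower and a higher set. Among 17 MHC class I and presentation genes from 10 TPM the median was -0.39 (-0.21 with no minimum). *Nlrc5*, the activator of class I genes, stood at 15.3 and 8.46 TPM, *Tapbp* (tapasin) at 167 and 102 TPM, *H2-T23* at 103 and 59.2 TPM and *B2m* at 5841 and 4422 TPM. The immunoproteasome subunits *Psmb8* (98.8 and 72.8 TPM), *Psmb9* (22.8 and 16.3 TPM) and *Psmb10* (90.1 and 55.0 TPM) were lower, beside a median of 0.06 over all 34 proteasome subunits. The only members past 2-fold were ligands of the NKG2D receptor of natural killer cells, *Raet1e* at 10.1 and 45.0 TPM and *Raet1d* at 47.2 and 121 TPM. Their gene models overlap on the same strand (chr10:22158569-22374139 and chr10:22360552-22374139), so reads of one may have been counted for the other.

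Complement genes from 10 TPM were lower in the classical and lectin branches alike. Of 30 listed, 12 reached 10 TPM, and each of these was below 0, with a median of -0.68 and a range from -1.11 to -0.45. At any level, 20 of the 29 in the table were below 0 and 9 above, against 60.2% of all genes below 0. *C4b*, the thioester component shared by both branches, was at 121 TPM untreated, 55.6 TPM with FGF18 and 67.7 TPM with TGFβ1. *C1s1* (69.7 and 37.7 TPM), a protease of the C1 complex, and *Masp1* (430 and 278 TPM), a protease of the lectin branch, were lower, and so were the regulators *Serping1*, the C1 inhibitor (686 and 338 TPM), and *Cd55* (14.8 and 7.38 TPM). *Colec11*, described above, initiates the lectin branch. *Saa3*, an acute phase protein, was also lower at 74.9 and 13.6 TPM.

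**Figure D5:**
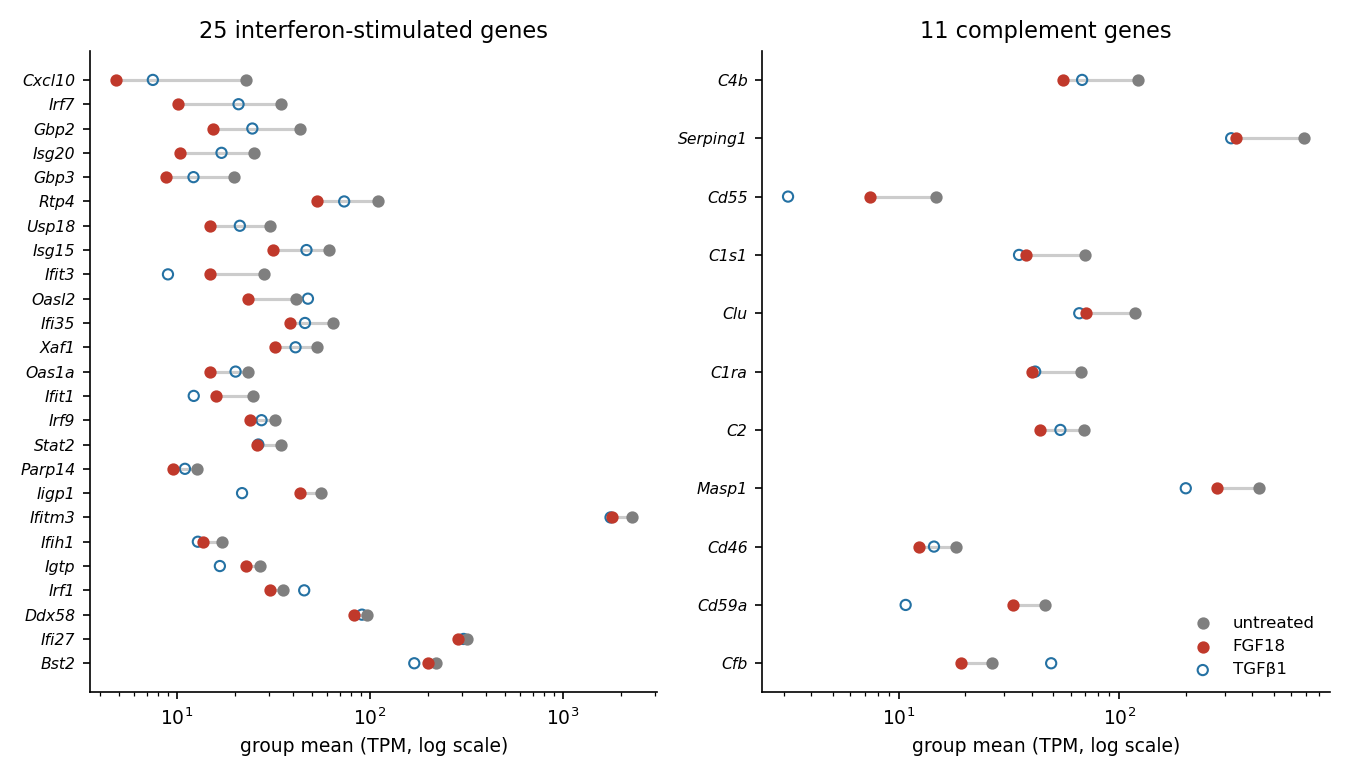
Group means (TPM, log scale) of 25 interferon-stimulated and 11 complement genes from 10 TPM, in untreated (grey), FGF18 (red) and TGFβ1 (blue, open) cells. The red point lies to the left of the grey one in each row, from *Cxcl10* (22.7 and 4.82 TPM) to *Bst2* and from *C4b* to *Cfb*.

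Other inflammatory signals were mixed, and *Cxcl10* of the interferon list counts again among the chemokines. Over 13 of 34 chemokines from 10 TPM the median was -0.29, with *Cxcl14* at 47.4 TPM untreated, 109 TPM with FGF18 and 260 TPM with TGFβ1 against *Ccl8* at 14.6, 6.09 and 8.63 TPM. Over 23 genes of the TNF and NF-κB response the median was -0.12, with *Tnfaip2* past 2-fold in one direction and *Tnfrsf11b* (osteoprotegerin, 218 and 75.5 TPM) in the other. Macrophage markers from 10 TPM did not share a direction, with *Cd68* at 52.1 and 85.0 TPM and *Lyz2* at 54.5 and 44.8 TPM. The summed macrophage marker level was 1063 and 897 TPM and that of leukocyte markers 95.4 and 78.1 TPM. Of the 13 endothelial markers from 10 TPM 12 were below 0, with a median of -0.33. The part of these cells in the interferon, MHC and complement values was not tested.

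The ratio spread more widely for some kinds of gene model than for others. Past 2-fold were 1.98% of 8707 protein-coding genes, 9.85% of 477 pseudogenes and 43.3% of 30 immunoglobulin or T cell receptor segments. The segments are short stretches, and whether few reads on them widened the ratios was not tested. The highest ratio of all, *Igkj4*, was a segment listed at 0 TPM untreated and 28.6 TPM with FGF18, and the lowest, *Gm48238*, a pseudogene at 27.3 and 0.000106 TPM. Pseudogenes had a median of -0.45 against -0.02 for protein-coding genes. By level, 3.53% of genes from 10 to 20 TPM were past 2-fold, 2.34% from 20 to 50 TPM, and 1.94% of the 103 genes from 1000 TPM. Beside *Dcn* and *Apoe*, the 5 lowest ratios from 1000 TPM were those of *Gm10800* (8222 and 5355 TPM), *Gm10719* (1283 and 827 TPM) and the pseudogene *Gm19220* (1303 and 768 TPM). Of the 99 genes at least 2-fold higher 83 were protein-coding, and of the 145 at least 2-fold lower 89 were.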

How the data were processed

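Bulk RNA-seq of primary mouse HSCs was available as 1 table for each stimulus. Levels in TPM were made by the authors from reads mapped to GRCm38 on the online platform RaNA-seq, and were deposited as the mean of each group. The submitters' processing notes name GRCm38 and mm10. For the aligner, counter and annotation, names and versions were not given in the sources used here. Group columns headed A and B were taken as untreated and stimulated from the order in the table's name. The tables also hold the overall mean and the authors' log2 fold change, its standard error, a statistic and p-values, none of which was used.

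For every gene the log2 of (FGF18 + 1 TPM) over (untreated + 1 TPM) was computed from the group means (Python 3.11.15, numpy 2.4.6, pandas 2.3.3), keeping genes with a mean of both groups of at least 10 TPM. Folds without a pseudocount are plain ratios of group means. A gene counted as called when it passed 2-fold on the log2 scale. No counts or values per library were used, so no test was run. The study states an approximate read number per sample, but the depth that each library reached is unknown. Its libraries were made from amplified cDNA with the SMART-Seq HT PLUS kit. The steps were checked on simulated means. Gene types and positions come from GENCODE M21, and promoters from RefSeq (GRCm38.p6). Of 106 rows that share a symbol with another row, 29 passed the minimum. They were counted separately, and lists used the row of higher mean.

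The members and the gene lists were chosen with earlier results of these data known. Named genes were drawn from the 25 highest and 25 lowest ratios. They also came from the 10 highest and 10 lowest from 100 TPM and the 5 highest and 5 lowest from 1000 TPM. From each list the members past 2-fold and the 4 of largest absolute ratio were added. Not every gene under this rule appears in the text. Other genes in the text (receptors, marker genes, further list members and interferon or complement genes shown as examples) were chosen after their values were seen. A few list members are not reported singly here. Alternatives were other pseudocounts, level minimums, thresholds and scalings, and protein-coding genes only.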

Additional observations from a re-analysis of the deposited data

How the results depend on the processing

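No paired analysis was possible because the files give group means and no values per library, and for the same reason leaving out a replicate and another normalization of counts were not run. Rescaling, centring and a pseudocount of 0.1 TPM kept the count of genes past 2-fold and its split within 1.5 times of the 244 genes reported (99 higher, 145 lower). With a pseudocount of 5 TPM 95 genes were lower. With protein-coding genes alone 89 were lower. A minimum of 5 TPM gave 499 genes (351 lower), 20 TPM gave 147 (75 lower), 100 TPM gave 38 (13 higher and 25 lower), and no minimum gave 2193 (705 higher and 1488 lower). At 1.5-fold 1112 genes passed (408 higher and 704 lower), and at 3-fold 69 (25 higher and 44 lower). The lists with a median of at least 0.3 in size numbered 13 of 61, but 6 from 100 TPM, where 29 lists had enough members, and 8 with no minimum. Of 571 recomputed list medians, 528 moved by less than 0.1, and 29, of 16 lists, changed sign. Of these, 25 belong to lists whose reported median was under 0.2 in size, and the other 4 were those of basement membrane genes (-0.36, and 0.0718 from 20 TPM), PDGF, VEGF, HGF and angiopoietin signals (-0.21, and 0.41 from 20 TPM), hyaluronan genes (-0.24, and 0.20 from 20 TPM) and prostaglandin synthesis (0.25, and -0.0999 with no minimum). Depth per library is unknown, and no error was computed for a single gene's ratio.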

Other observations

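A few groups not described above also differed between the means. Lipid uptake genes were divided, with *Fabp5*, an epidermal fatty acid-binding protein, at 37.6 TPM untreated and 70.5 TPM with FGF18, while *Fabp4* stood at 54.5, 27.6 and, with TGFβ1, 2.18 TPM, and *Cd36* at 61.9, 37.1 and 11.5 TPM. The part of endothelial cells in the lipid uptake values was not tested. The metallothionein genes *Mt1* (953 and 1309 TPM) and *Mt2* (304 and 488 TPM), chosen after their values were seen, were under 2-fold. Of 11 high mobility group genes from 10 TPM, 8 were above 0 and the median was 0.08. The nucleosome-binding members *Hmgn3* (73.8 and 36.9 TPM) and *Hmgn5* (19.5 and 9.56 TPM) lay lowest, whereas *Hmgn1* (180 and 186 TPM) and *Hmgn2* (113 and 127 TPM) hardly differed.

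Angiogenic and vasoactive factors differed singly. *Vegfa* stood at 33.2 and 56.1 TPM, *Vegfd* at 18.2 and 10.8 TPM, *Adm* (adrenomedullin) at 472 and 286 TPM and *Adora2b*, an adenosine receptor, at 6.81 and 15.1 TPM. Integrin chains were divided between *Itgb2* (15.3 and 34.0 TPM), a leukocyte chain, and *Itga1* (69.8 and 33.5 TPM), a collagen receptor chain, with a median of 0.06 over 12 chains. Among circadian clock genes none of 11 was past 2-fold, and the median was -0.02. *Fkbp5*, a glucocorticoid target, was at 12.7, 31.8 and, with TGFβ1, 27.7 TPM, while *Dusp1* and *Klf9*, which respond to the same hormone, stood at 177 and 122 TPM and at 17.7 and 21.7 TPM.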
